A study of Homo sapiens with 2 samples.

Results

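The loops described here lie in a stretch of chromosome 9 from 130 to 135 Mb (hg19, the build in the labels), which held 548 of the 31950 loops of the H3K27ac HiChIP list (1.72%) and 36.1% of the 1517 loops of that chromosome. HiChIP ligates DNA ends that lie close together in the nucleus and then enriches for a histone mark, here H3K27ac of active promoters and enhancers, so that a loop is a contact between active stretches of chromatin. KYSE180, an established cell line of esophageal squamous cell carcinoma (ESCC), was transfected with a non-targeting siRNA and profiled in 2 libraries, replicates 1 and 2, with no other treatment in the labels, which do not say whether they came from separate cultures. The study used loop calling to find active loops associated with p63, a transcription factor of squamous cells, and whether p63 entered the choice of loops is not given in the sources used here. Both libraries share 1 list, so no value has a spread between replicates, the depth of each library is unknown, and no comparison between conditions was possible.

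The segment was chosen by its number of loops, and a loop was a member when both of its bins (anchors of 2 kb each) started inside it. Among 559 windows of 5 Mb with at least 1 loop, counted by the same rule, only 2 had more, namely chromosome 11 from 65 to 70 Mb with 1367 and chromosome 19 from 45 to 50 Mb with 591. The next window below was chromosome 17 from 75 to 80 Mb with 482 loops, and the median window had 25. High numbers of loops and anchors in the segment therefore restate how it was picked, and they are given as a description. The intervals below are 95% intervals, Wilson for shares, exact Poisson for counts and order statistics for medians. They cover counting error only, since loops that share an anchor, and PCR reads, are not independent.

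The segment lies near the end of the long arm, largely in band 9q34. Genes known from that band include ABL1, a tyrosine kinase gene, SET, which encodes a histone chaperone, NUP214, a component of the nuclear pore, SPTAN1, an alpha spectrin of the membrane skeleton, and LCN2, a secreted lipocalin. In gene-rich bands such as this, many active promoters lie within a short distance of each other and of enhancers, and H3K27ac loops are known to join promoters to enhancers as well as promoters to promoters. The annotation at hand was on hg38, whose chromosome 9 ends at base 138394717, whereas the list runs to base 141048000. For this reason no anchor was assigned to a gene, no sequence was printed, and anchors are named by the position of their first base in Mb.

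Loops were most frequent in the lower part of the segment. From 130 to 132.5 Mb there were 402 loops by midpoint, or 73.4% (interval 69.5 to 76.9%), on 283 anchors, and from 132.5 to 135 Mb there were 146 loops on 149 anchors. Each anchor of the lower part took part in 2.82 loops on average and each anchor of the upper part in 2.0. By 1 Mb, the numbers were 154 from 131 to 132 Mb and 151 from 132 to 133 Mb, but 48 from 133 to 134 Mb. By midpoint, the densest 0.5 Mb was 132 to 132.5 Mb with 120 loops (interval 99.5 to 143), followed by 131.5 to 132 Mb with 83 (66.1 to 103). Counted by bins instead of midpoints, the order was reversed. The part from 131.5 to 132 Mb had 53 loops inside and 95 that left it, against 57 and 77 for 132 to 132.5 Mb. It also had 11 anchors with 6 or more loops, against 8. Directly above the densest part, 132.5 to 133 Mb had 31 loops (21.1 to 44.0), and the fewest, 23 (14.6 to 34.5), lay from 133.5 to 134 Mb. The interval of the densest part did not overlap those of any of the 5 parts above 132.5 Mb. This part was picked by that same count and many of its loops share anchors, so the separation is a description.

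**Figure D1:**
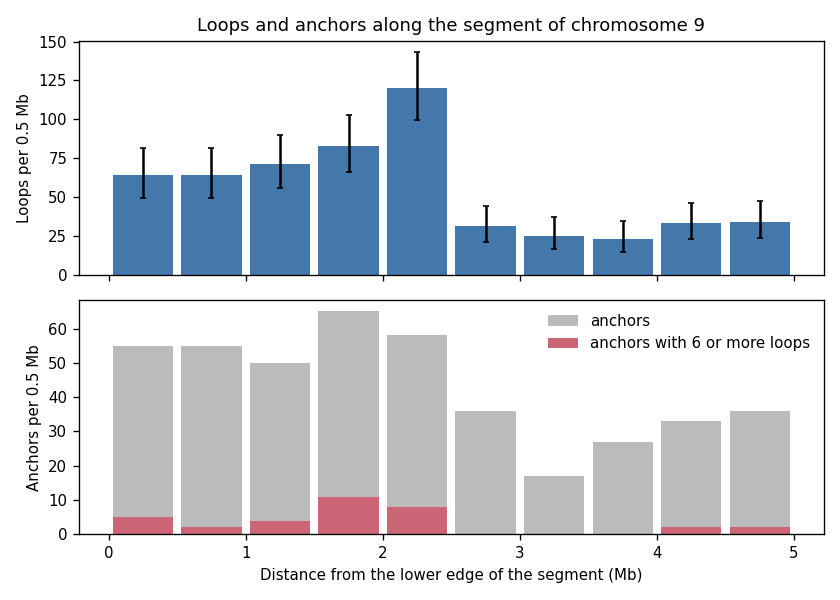
The upper panel shows loops per 0.5 Mb by midpoint, with exact Poisson intervals, against the distance in Mb from the lower edge of the segment, and the lower panel shows the anchors (grey) and those with 6 or more loops (red). Counts rise to 120 loops in the part from 2 to 2.5 Mb and lie between 23 and 34 in the 5 parts after it.

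Anchors were also spread unevenly, though less so than loops. The 0.5 Mb from 131.5 to 132 Mb held 65 anchors, whereas 133 to 133.5 Mb held 17. Of the 431 steps from an anchor to the next, 230 had no gap because the bins touched, and 16 were wider than 50 kb, 12 of these above 132.5 Mb. The widest anchor-free stretch ran from 133032000 to 133302001 (270 kb), and 33 loops passed over it. The next widest, 202 kb from 134618000 to 134820001, was passed over by 5 loops. An anchor-free stretch holds no bin that passed the H3K27ac filter and entered a loop with both bins in the segment. Bins whose only loops left the segment were not counted as anchors, and such a stretch is not a measurement of the mark itself.

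The loops between 0.5 Mb parts describe how far the contacts reached. The parts from 131.5 to 132 Mb and from 132 to 132.5 Mb were joined to each other by 50 loops, nearly as many as lay inside either, 53 and 57. By contrast, 7 loops joined 132 to 132.5 Mb to the part above it. The 2 lowest parts of the segment were joined by 30 loops, the next pair, which meets at 131 Mb, by 16, and the pair that meets at 131.5 Mb by 24. In the upper part of the segment, neighbours were joined by 12, 4, 8 and 11 loops in order of position. The part from 133 to 133.5 Mb had the fewest loops inside, 5, and 19.2% of the loops with a bin in it stayed inside.

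**Figure D2:**
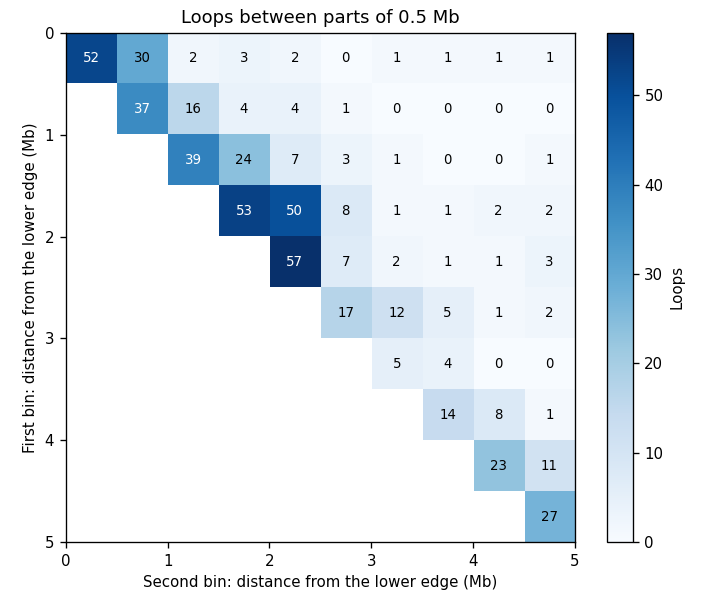
Each square gives the number of loops between a 0.5 Mb part that holds the first bin (vertical axis) and one that holds the second (horizontal axis), both as distance in Mb from the lower edge of the segment. Beside the diagonal, the square of 50 loops between the parts that meet at 2 Mb stands out, with 7 loops to its next neighbour.

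The same loops were also counted at a finer scale by the points they pass over, so these counts are not independent of those above. Over 49 points spaced by 100 kb, the number of loops that crossed had a median of 33 and was highest at 132.2 Mb, with 88. It fell to 74 at 132.3 Mb, 54 at 132.4 Mb and 38 at 132.5 Mb. With loops spanning under 1 Mb only, 61 crossed at 132 Mb and at 132.2 Mb, 13 at 132.5 Mb and 9 at 132.6 Mb. Further maxima of these loops lay at 130.5 Mb with 32 and at 131.6 Mb with 42, with 17 at 130.9 Mb and 22 at 131.8 Mb beside them. The fewest, 3, crossed at 134.7 and 134.8 Mb, in the anchor-free stretch of 202 kb. Among loops spanning under 0.2 Mb, 8 of the 49 points were crossed by none. Numbers near either edge are low by construction, because loops over an edge are not members.

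**Figure D3:**
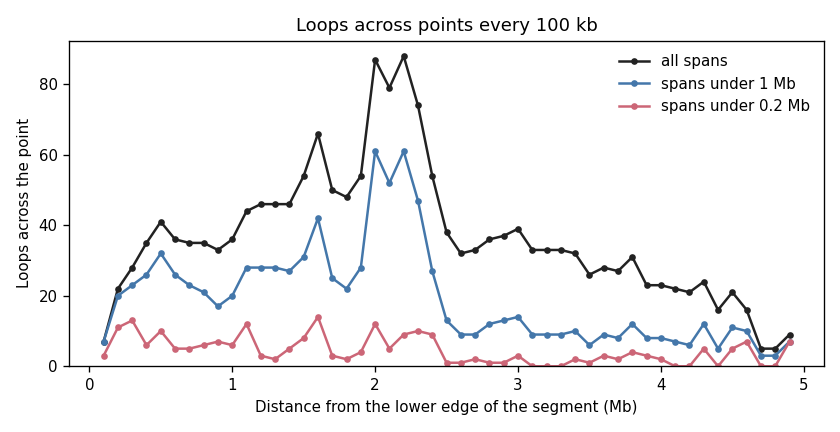
Loops that pass over points every 100 kb are plotted against the distance in Mb from the lower edge of the segment, for all spans (black), spans under 1 Mb (blue) and spans under 0.2 Mb (red). All spans peak at 88 loops, and loops under 1 Mb fall from 61 to 13 between 2.2 and 2.5 Mb from the edge.

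Individual anchors differed widely in the number of their loops. Of the 432 anchors, 163 (37.7%, interval 33.3 to 42.4%) had 1 loop, 120 had 2, and 34 (7.87%, 5.69 to 10.8%) had 6 or more. In the whole list 59.2% of the anchors had 1 loop and 3.05% had 6 or more, and the segment on chromosome 19 had 39.3% and 7.66%, that on chromosome 17 34.1% and 6.87%. The intervals of all 3 dense segments overlapped each other in both shares. Because a dense segment offers more partners to each anchor, these shares are not independent of how the segments were picked.

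The 10 anchors with the most loops (ties broken by contacts, then by position) made up 2.31% of the anchors and took part in 108 loops, 19.7% of the segment (interval 16.6 to 23.2%). Of these anchors, 3 lay from 130 to 131.5 Mb, 6 from 131.5 to 132.5 Mb and 1 near 134.27 Mb. Among the 108 loops, 3 joined these anchors to each other, and whether that is few was not tested. Their other partners have no more loops than they do by the way the 10 were picked. All loops of these 10 anchors in the whole list lay inside the segment, whereas 7.43% of all loops with a bin in it crossed an edge. The 10 were picked by their loops inside it, and whether this differs from other anchors was not tested.

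The anchor chr9:130186001-130188000 (130.186 Mb) had 15 loops with 17 contacts and the highest coverage of any first bin of the segment, 125. Coverage is the second count of the list, read as the contacts of a bin with all other places. Its partners ran from 130.066 to 130.698 Mb, apart from 1 loop of 4120 kb to 134.306 Mb. On its lower side it was joined to 4 anchors, among them 130.124 Mb by 2 contacts, and on its higher side to 11, with 2 contacts to 130.202 Mb. A run of 5 of these partners lay between 130.296 and 130.34 Mb, spanning 110 to 154 kb.

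The anchor chr9:130330001-130332000 (130.33 Mb), itself one of those partners, had 10 loops with 13 contacts and a coverage of 70. Its loops were short, with a median span of 36 kb, and 3 of them had 2 contacts each, to 130.3, 130.318 and 130.342 Mb. No anchor of the segment had more loops of 2 or more contacts. Touching it, the bin at 130.328 Mb had 7 loops with 7 contacts and a median span of 142 kb.

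The anchor chr9:132244001-132246000 (132.244 Mb) also had 15 loops, with 16 contacts and a coverage of 90, and its median span was 254 kb. It reached from 130.66 to 134.25 Mb, and 3 of its loops spanned over 1 Mb. Separated from it by 4 kb, the anchor chr9:132250001-132252000 (132.25 Mb) had 11 loops with 12 contacts, 8 of them to lower positions, and none spanned more than 350 kb. Both were joined to the bin at 131.936 Mb, with spans of 308 and 314 kb, the latter by 2 contacts, and both to the bin at 132.124 Mb. The same place was joined to 131.9 to 131.906 Mb by 3 loops of 342 to 350 kb.

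The anchor chr9:131902001-131904000 (131.902 Mb) had 12 loops with 13 contacts and a coverage of 84. Of its loops, 5 reached 132.202 to 132.386 Mb, with spans of 300 to 484 kb and 2 contacts to 132.372 Mb. The anchor chr9:132388001-132390000 (132.388 Mb) had 11 loops with 11 contacts, and its median span, 508 kb, was the longest among the 10. It was joined to 131.876 and 131.88 Mb over 512 and 508 kb. The anchor chr9:132362001-132364000 (132.362 Mb), 26 kb below it, had 9 loops with 9 contacts, 8 of them to lower positions, and a median span of 50 kb. These 5 anchors took part in 57 loops, of which 45 stayed between 131.8 and 132.5 Mb and 5 had a bin above 132.5 Mb.

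The anchor chr9:131418001-131420000 (131.418 Mb) had 10 loops with 11 contacts to both sides, from 131.122 to 131.652 Mb and, over 1170 kb, to 132.588 Mb. Its loop to 131.582 Mb, spanning 164 kb, had 2 contacts. The anchor chr9:131622001-131624000 (131.622 Mb) had 10 loops with 11 contacts, was joined to 131.418 Mb over 204 kb, and sent 2 loops of 2626 and 2850 kb to 134.248 and 134.472 Mb. The anchor chr9:134270001-134272000 (134.27 Mb), the only one of the 10 in the upper part of the segment, had 8 loops with 10 contacts and a median span of 25 kb. Of its partners, 7 lay between 134.23 and 134.298 Mb, and 1 lay 264 kb away at 134.534 Mb. The anchor at 134.484 Mb also had 8 loops with 10 contacts and came after it only by position. Unlike the 10, it had a further loop that left the segment, as had the anchor at 130.856 Mb with 8 loops inside, and both would have come before 134.27 Mb had these loops been counted.

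**Figure D4:**
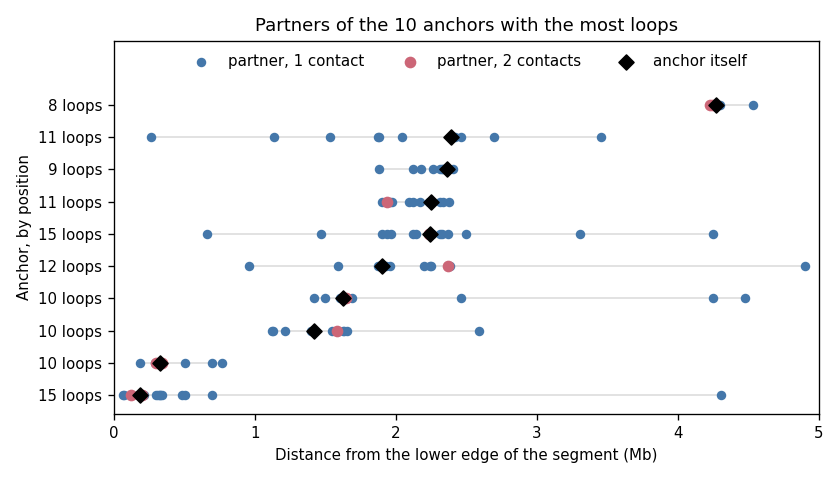
Each line is 1 of the 10 anchors with the most loops (black diamond), ordered by position from bottom to top, and the points are its partners, blue for 1 contact and red for 2, by distance in Mb from the lower edge of the segment. Most partners lie near their anchor, and the anchors with 15, 12 and 11 loops around 2 Mb share the range from 1.9 to 2.4 Mb.

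Anchors with more loops also had higher coverage. Over the 276 anchors of the segment that were the first bin of a loop, Spearman's rho between loops and coverage was 0.504, which is a description across bins of the same libraries, since the contacts of a loop are part of the coverage of its first bin. The median coverage of these bins was 16 (interval 15 to 17), against 11 (10 to 12) on the rest of chromosome 9, 12 (11 to 13) in the segment of chromosome 19 and 13 (12 to 15) in that of chromosome 17, and only the last interval touched that of the segment. The value of 16 was not high among dense windows. Over the 12 windows of 5 Mb with the most loops, medians ran from 9 to 28. The lowest was on chromosome 19 from 0 to 5 Mb and the highest on chromosome 3 from 180 to 185 Mb. The window with the most loops, chromosome 11 from 65 to 70 Mb, had 26. Inside the segment, the median was 16 below 132.5 Mb and 15 above it. The bins at 131.084 Mb (coverage 85) and 133.454 Mb (coverage 75) had 5 and 3 loops, so a high coverage did not always come with many loops. Copy number, the mappability of the bins and the strength of H3K27ac were not analysed here, and their part in the coverage was not tested.

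Touching anchors formed 202 stretches, of which 57 were a lone bin and the longest was 12 kb, from 134.23 to 134.242 Mb. The stretch with the most partners, chr9:132244001-132254000, was 10 kb long and was joined to 22 other stretches by 32 loops, while the median stretch had 4 partners. It was followed by 130.328 to 130.334 Mb with 16 partners, 130.184 to 130.19 Mb and 130.316 to 130.326 Mb with 14 each, and 132.386 to 132.392 Mb with 13. The stretches 131.622 to 131.628 Mb, 131.9 to 131.906 Mb and 131.928 to 131.934 Mb had 12 partners each, and 131.642 to 131.648 Mb and 132.33 to 132.336 Mb had 11 each. The longest stretch had 6 partners, and among the 10 longest (ties by position) the number ran from 6 to 22. Whether partners rose with length over all stretches was not tested.

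Pairs of stretches joined by more than a lone loop hold contacts that were seen again in neighbouring bins. Of the 458 pairs joined, 387 (84.5%, interval 80.9 to 87.5%) rested on 1 loop and 71 on 2 or more, and the latter held 29.4% of the loops. The median distance was 26 kb for these 71 pairs and 190 kb for the others. The pairs with the most loops, 4 each, were 134.484 to 134.488 Mb with 134.512 to 134.52 Mb (6 contacts), 134.23 to 134.242 Mb with 134.268 to 134.274 Mb (5 contacts), and 131.662 to 131.668 Mb with 131.674 to 131.678 Mb (4 contacts). Only 9 such pairs lay more than 200 kb apart. The stretch at 131.9 Mb was joined to that at 132.244 Mb by 3 loops over 338 kb, and the stretch at 131.122 Mb to that at 131.418 Mb by 3 loops over 288 kb. Of these 9 pairs, 6 had both ends between 131.87 and 132.38 Mb. Whether so many would arise on anchors of this density was not tested.

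Most loops rested on 1 contact, a count whose Poisson interval runs from 0.0253 to 5.57. Of the 548 loops, 522 had 1 contact, 24 had 2 and 2 had 3, so that 26 loops (4.74%, interval 3.26 to 6.86%) had 2 or more. The loops with 3 contacts joined 131.068 to 131.084 Mb over 16 kb and 134.484 to 134.518 Mb over 34 kb. The 26 loops had a median span of 22 kb, and 19 of them spanned under 50 kb. The 4 that spanned over 100 kb joined 131.418 to 131.582 Mb (164 kb), 131.936 to 132.25 Mb (314 kb), 131.902 to 132.372 Mb (470 kb) and 130.964 to 131.464 Mb (500 kb). Of the 26, 12 (46.2%) had an end at 1 of the 10 anchors with the most loops, against 108 of all 548 loops (19.7%). Part of this is built in, since ties for the last of the 10 places were broken by contacts. Whether 12 is many was not tested. By midpoint, 7 of them lay from 130 to 130.5 Mb, which held 64 of the 548 loops. None lay from 133 to 134 Mb, which held 48, so few were to be found there at the share of the segment. The loop from 132.964 to 133.03 Mb, with 2 contacts, had its second bin above 133 Mb but was counted below it.

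Loops with 2 or more contacts were more frequent in the segment than on the rest of chromosome 9, where 16 of 925 loops with no bin in the segment had them (1.73%, interval 1.07 to 2.79%). Their share was 3.72% (2.47 to 5.57%) in the segment of chromosome 19, 6.02% (4.22 to 8.51%) in that of chromosome 17 and 3.36% (3.16 to 3.56%) in the whole list. The interval of the chromosome 9 segment overlapped that of both other dense segments and of the whole list, but not that of the rest of its chromosome. The interval of that rest also lay below that of the whole list, so the contrast rests in part on a low share there. Among loops spanning 10 to 50 kb, 10.9% (7.10 to 16.4%) had 2 or more contacts, against 2.11% (0.968 to 4.52%) on the rest of chromosome 9 and 7.26% (6.77 to 7.79%) in the whole list. The other dense segments had 10.9% (7.06 to 16.3%) on chromosome 17 and 7.54% (4.62 to 12.1%) on chromosome 19, so this share was not particular to the chromosome 9 segment. In that segment the share was 2.5% from 50 to 200 kb and 1.78% from 200 to 1000 kb, and 0 of 45 longer loops had 2 or more, which allows a share of up to 7.87%.

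**Figure D5:**
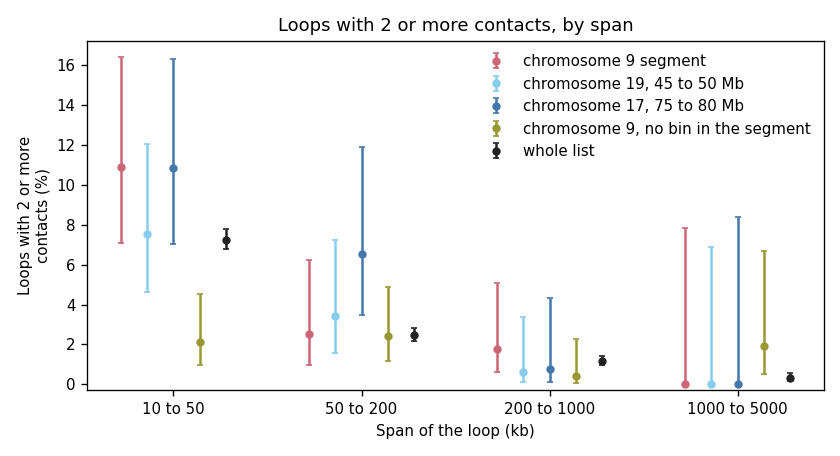
The share of loops with 2 or more contacts (%) is shown by span class in kb, with 95% Wilson intervals, for the chromosome 9 segment, both other dense segments, the loops of chromosome 9 with no bin in the segment, and the whole list. At 10 to 50 kb the segment lies at 10.9%, the dense segments of chromosomes 17 and 19 at 10.9% and 7.54%, the whole list at 7.26% and the rest of chromosome 9 at 2.11%. There the segment overlaps the whole list in its interval, and the rest lies below both. In the longer classes the intervals of the segment overlap all others.

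Coverage differed between the segment and the rest of its chromosome, so the shortest loops were also set side by side at like coverage of the first bin. At a coverage below 15, 5.66% of 53 loops of the segment had 2 or more contacts (interval 1.94 to 15.4%), against 1.28% of 156 on the rest of chromosome 9 (0.352 to 4.55%). From 15 to below 30 the shares were 8.45% of 71 (3.93 to 17.2%) and 2.88% of 104 (0.986 to 8.14%), and from 30 they were 20% of 50 (11.2 to 33.0%) and 4.0% of 25 (0.710 to 19.5%). The segment was higher in each class, but the intervals overlapped in all of them. In the rest of the whole list the shares were 3.72%, 7.16% and 15.7%, each inside the interval of the segment.

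The spans of the loops had a median that overlapped those elsewhere in its interval. This median was 130 kb (interval 108 to 154 kb; interquartile range 33.5 to 354 kb) in the segment, 120 kb (94 to 138 kb) in that of chromosome 19, 94 kb (80 to 128 kb) in that of chromosome 17 and 116 kb (104 to 130 kb) on the rest of chromosome 9. Loops of 10 to 50 kb made up 31.8%, those of 50 to 200 kb 29.2%, those of 200 to 1000 kb 30.8%, and those of at least 1 Mb 8.21%. The last share was 11.7% in the whole list, but loops that leave a window of 5 Mb are not members, and the same rule gave 8.80% and 8.71% in the other dense segments. Of the loops, 83.4% (interval 80.05 to 86.28%) passed over at least 1 other anchor stretch, against 83.6% and 85.1% in the segments of chromosomes 19 and 17, 77.4% (74.6 to 79.98%) on the rest of chromosome 9 and 79.1% (78.6 to 79.5%) in the whole list. The last 2 intervals lay below that of the segment, and a dense segment has more stretches to pass over.

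The 45 loops of at least 1 Mb each had 1 contact and were spread over 78 anchors, 68 of which had just 1 such loop. The longest joined 130.338 to 134.614 Mb over 4276 kb. The anchors at 132.244 and 132.388 Mb had 3 each. Of the 45, 25 joined a place below 132.5 Mb, the middle of the segment, to one above it, 13 lay below it and 7 above. Loops this long with both bins inside the segment tend to cross its middle by length alone, and whether 25 is many was not tested.

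Followed from anchor to anchor, 389 of the 432 anchors (90.05%) belonged to 1 connected group that ran from 130.008 to 134.974 Mb, and 9 of the 16 groups were a lone pair of anchors. This reach rested on the longer loops. With loops under 1 Mb, the largest group held 332 of 411 anchors and ended at 134.536 Mb, and with loops under 0.2 Mb it held 88 of 337, from 130.066 to 131.318 Mb, next to a second group of 60. In the segments of chromosomes 19 and 17, the largest group held 89.9% and 93.1% of the anchors with all loops and 23.9% and 20.3% with those under 0.2 Mb, against 26.1% here. With loops under 1 Mb it held 87.3% and 87.9% there, up to 49.996 and 79.984 Mb and with second groups of 9 and 5 anchors, against 80.8% here with a second group of 40.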

How the data were processed

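H3K27ac HiChIP of KYSE180 was done in 2 libraries of 1 condition. The authors ran HiC-Pro on the reads and FitHiChIP, set to Peak-To-All, on its output, and discarded loops unless H3K27ac was present at both ends. The stated aim was to find loops associated with p63, with no step given that used p63. Versions and thresholds are not given in the sources used here, and the labels name hg19. The deposited list holds raw counts in 2 columns without a header. They were read, from the order FitHiChIP writes and from their values, as contacts of a loop and coverage of its first bin. Depth is unknown, because the list holds only bins with a loop, whose coverage summed to 5675 over 276 first bins of the segment.

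Loops were kept where both bins started in the segment. Bins that touch were merged into stretches, and windows counted loops by midpoint. Functions were tested on simulated loops of known structure. No test across samples was possible, and none was made across loops. The segment, the other segments and the rules for named anchors (the 10 anchors with the most loops, the 10 stretches with the most partners, every loop of 3 or more contacts) were chosen with earlier results of these data known. The points crossed by loops, the connected groups, the 0.5 Mb parts joined and the coverage classes were added after the data were seen. Gene lists, promoters and motifs were not used, because the reference was on hg38. Alternatives were other minimum contacts, spans, membership rules, merging distances and windows. The tools were matplotlib 3.10.9, scipy 1.17.1, pandas 2.3.3 and numpy 2.4.6 under Python 3.11.15.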

Additional observations from a re-analysis of the deposited data

How the results depend on the processing

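Recomputing 11 results under alternatives gave 36 values, of which 20 stayed within 1.5 times the count or within the 95% interval, and 16 moved. For the densest window, the values that stayed set 154 loops per 1 Mb against 120 loops per 0.5 Mb and 115 anchors. These are unlike counts, so their staying shows little. By 0.5 Mb and midpoint, the densest place was 132 to 132.5 Mb, outside the densest 1 Mb, 131 to 132 Mb. Only loops with 2 or more contacts left 26 loops on 43 anchors in 39 stretches, with a median span of 22 kb, at most 3 loops at an anchor, 50% of loops passing over another stretch and 8 loops in the densest 1 Mb. A minimum span of 20 kb moved the median span to 169 kb, the share of loops with 2 or more contacts to 2.99% and the share passing over a stretch to 94.2%. Merging anchors up to 4 kb apart lowered that share to 74.8%. Counting coverage once for each loop gave a median of 19. With membership by midpoint or by at least 1 bin, all 12 values of 6 results stayed, with 572 and 592 loops. Added after the data were seen, the largest connected group held 80.8% of anchors with loops under 1 Mb, 26.1% with loops under 0.2 Mb and 11.6% with loops of 2 or more contacts, and at most 61 and 14 loops crossed a point with loops under 1 Mb and under 0.2 Mb. The cause was not tested beyond what each construction fixes. Alternatives on promoters and genes were not run, as they need an annotation of hg19. No paired analysis was possible because 1 list stands for the 2 libraries, which are of 1 condition, and no replicate could be left out.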

Other observations

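Loops that left the segment were not members and are given here as values. There were 44 with 1 bin inside it, 25 over the lower edge and 19 over the upper, and each had 1 contact. They make up 7.43% of all loops with a bin in the segment. Over the lower edge the spans ran from 296 to 4678 kb (median 1088 kb), the outside bin nearest to the edge was at 129.988 Mb and the farthest at 127.072 Mb. Over the upper edge the spans ran from 52 to 4962 kb (median 1328 kb), with outside bins from 135.006 to 137.296 Mb. Just inside the edges, the lowest anchor of a member was at 130.008 Mb, with 2 loops, and the highest at 134.972 Mb, with 1.

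None of these 44 loops ended at the 10 anchors with the most loops in the segment, which rests in part on a tie, since 1 ended at the anchor at 134.484 Mb, level with the last of the 10 in loops and contacts. Those 10 were 2.31% of the anchors and took part in 19.7% of the member loops, which have both ends inside. They were also ranked by loops inside the segment only, so few ends were to be found there, and this was not tested. The inside ends of the 44 loops were 23 and 17 different bins, and the bins at 130.502, 130.504, 132.976 and 134.954 Mb took 2 each. Of the inside ends, 19 of 25 and 15 of 19 were at bins that also had a loop inside the segment.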
